A study of Mus musculus with 12 samples.

Results

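The genes described here are 39 mouse genes of late endosome and lysosome traffic, chosen by name from a fixed list and matched to the single gene symbol of a probe set. The list was drawn up with earlier results of these data known, so its shares beside all genes are descriptions. All 39 were measured, out of 19937 genes on the array, by 43 probe sets, of which the 39 with the highest mean signal were used. They code for the tethering complexes HOPS, CORVET and CHEVI, for endosomal and granule Rab GTPases, for the Mon1-Ccz1 activator of Rab7, for adaptors and motors that place lysosomes in the cell, for retromer and for ESCRT. Expression was measured in 2 progenitor populations sorted from bone marrow. The 4 groups were Lamtor2 knockout LSK, wild-type LSK, Lamtor2 knockout GMP and wild-type GMP, with 3 arrays each. The LSK population, which lacks lineage markers and carries both Sca1 and c-kit, contains the blood stem cells and multipotent progenitors. GMP, the granulocyte-macrophage progenitors, lack lineage markers and Sca1 and carry c-kit, CD34 and FcγR. Knockout (KO) mice were C57BL/6J with Mx-Cre and Lamtor2f/f, and wild-type (WT) mice were C57BL/6J with Mx-Cre and Lamtor2 wt/wt. The strain field writes the Cre as Mx1-Cre wt/wt in both genotypes, while the growth protocol calls all of the mice Mx-Cre. All mice, WT included, received intraperitoneal pIpC, which induces Mx1-Cre, and cells were sorted 14 days later, so Cre and pIpC are shared by both genotypes. Mx1-Cre is active in every cell that answers to interferon, in blood and in other organs, so effects of the loss within a progenitor and in the cells around it cannot be told apart. The cells came from 3 mice of each genotype, and the labels do not say which LSK and GMP arrays share a mouse.

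Lamtor2 codes for a subunit of Ragulator, the scaffold that holds Rag GTPases and through them mTORC1 on the late endosome and lysosome, and that also binds BORC, the complex that controls where lysosomes lie. Endosomes mature as Rab5 gives way to Rab7, a switch driven by Mon1-Ccz1. CORVET tethers membranes that carry Rab5, HOPS tethers those that carry Rab7, ESCRT sorts ubiquitinated receptors into vesicles inside the endosome, and retromer returns other cargo to the Golgi or the surface. In granulocyte precursors the same machinery also builds and moves granules, which are lysosome-related organelles.

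All values are log2 RMA array signals, as deposited, and a difference of 1 on this scale is a doubling of signal. Differences were tested with limma in 1 fit to the 12 arrays, with p-values adjusted over all 19937 genes (Benjamini-Hochberg) and a threshold of 0.05. In each cell type Lamtor2 itself was far lower in KO arrays. It read 5.11, 5.40 and 5.77 in KO LSK, against 10.39, 10.48 and 10.31 in WT LSK, and 5.53, 5.12 and 4.95 in KO GMP, against 10.80, 10.82 and 10.61 in WT GMP. The highest of these KO values, 5.77, was taken as the level below which a signal gives only a bound. Of the 39 members 37 stayed above it on every array. Rilp lay at 5.33 to 5.83 and Kif1b fell below it on 1 array. Of the LSK and stem cell markers 10 of 10 measured were higher in WT LSK than in WT GMP, and 11 of 12 GMP markers were lower. KO GMP replicate 1 stood apart, with a root mean square deviation from its group of 0.285 over the members, against 0.073 to 0.183 for the other 11 arrays. Precision is set by having 3 arrays in each group: the 95% interval of a member's KO effect reached a median of 0.24 log2 units to either side.

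Promoter sequence was taken from RefSeq (GRCm38.p6), as the 250 bases before and the 50 bases after an annotated transcript start, which gave 38 promoters for 31 of the 39 members. Vps39, Kif5b and Rab38 were among the members without one and were not searched. The promoters were searched for CACGTG, the palindromic core of the E-box that the transcription factors Tfeb and Tfe3 recognise in lysosomal genes. Because the motif is its own reverse complement, 1 search covers both strands. It was found in 7 of the 31 members (22.6%), namely Bloc1s1, Rab27a, Rab5a, Tgfbrap1, Vps16, Vps26a and Vps33a, against 9.5% of the 15613 measured genes with a promoter. The longer form TCACGTG, or CACGTGA on the other strand, which contains the first motif, was in 19.4% of the members and 5.35% of the measured genes. The 5 promoters below were chosen after their values were seen. Those of Vps33a and Bloc1s1 are shown because each holds CACGTG at 2 places just before the start, those of Rab27a because this gene moved in opposite directions in the 2 cell types and has 2 annotated starts, and that of Plekhm2 because its KO effect was the largest among the members. Capitals mark CACGTG.
Vps33a, chr5:123572966-123573265, minus strand: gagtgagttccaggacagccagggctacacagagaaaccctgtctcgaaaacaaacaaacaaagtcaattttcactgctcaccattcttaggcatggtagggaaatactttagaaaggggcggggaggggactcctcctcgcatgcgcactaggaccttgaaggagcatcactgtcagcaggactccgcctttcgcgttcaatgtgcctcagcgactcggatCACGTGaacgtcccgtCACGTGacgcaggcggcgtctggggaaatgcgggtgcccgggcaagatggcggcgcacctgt
Bloc1s1, chr10:128923475-128923774, minus strand: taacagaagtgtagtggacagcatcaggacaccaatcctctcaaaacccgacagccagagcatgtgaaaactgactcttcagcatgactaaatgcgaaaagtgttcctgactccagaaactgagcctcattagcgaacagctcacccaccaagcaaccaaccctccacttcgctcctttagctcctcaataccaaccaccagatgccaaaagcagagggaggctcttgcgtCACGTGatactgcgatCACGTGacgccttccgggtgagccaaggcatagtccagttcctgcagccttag
Rab27a, first start, chr9:73044560-73044859, plus strand: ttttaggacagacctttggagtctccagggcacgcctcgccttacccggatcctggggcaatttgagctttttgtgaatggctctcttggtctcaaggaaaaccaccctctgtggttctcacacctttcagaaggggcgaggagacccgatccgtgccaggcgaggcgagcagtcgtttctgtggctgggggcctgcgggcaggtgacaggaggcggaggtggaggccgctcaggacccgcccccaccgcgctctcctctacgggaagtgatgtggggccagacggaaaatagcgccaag
Rab27a, second start, chr9:73063898-73064197, plus strand: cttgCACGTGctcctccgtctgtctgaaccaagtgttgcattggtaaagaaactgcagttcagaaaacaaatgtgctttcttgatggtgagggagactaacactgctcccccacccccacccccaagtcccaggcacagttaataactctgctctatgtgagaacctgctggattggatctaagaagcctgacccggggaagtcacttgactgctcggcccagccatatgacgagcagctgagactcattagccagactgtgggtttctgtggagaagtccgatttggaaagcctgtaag
Plekhm2, chr4:141664097-141664396, minus strand: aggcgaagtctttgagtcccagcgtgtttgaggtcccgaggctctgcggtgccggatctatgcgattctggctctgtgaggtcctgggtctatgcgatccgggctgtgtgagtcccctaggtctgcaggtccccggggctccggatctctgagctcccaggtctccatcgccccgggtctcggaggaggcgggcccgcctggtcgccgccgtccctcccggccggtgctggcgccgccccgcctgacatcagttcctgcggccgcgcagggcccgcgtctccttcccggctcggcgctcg
In Vps33a the motif began at -28 and at -12 from the start, and in Bloc1s1 at -19 and at -3. In Rab27a it was only at the far end of the second window, at -246, and these letters were not in the windows of Plekhm2, Snx1, Vps18, Ccz1, Rab32 or Rab7. The 7 members with the motif had a median KO effect of 0.07 in LSK and -0.04 in GMP, beside 0.00 and -0.06 for the 24 members whose windows lacked it. Rab27a was the 1 member of the 7 past the threshold in either cell type.

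In LSK, Lamtor2 loss went with higher Vps39 and Rab27a, and no other member passed the threshold. Counted over the list, 2 of the 39 members were higher (5.13%) and 0 lower, beside 4.44% of all genes called in either direction, 2.49% higher and 1.96% lower, so the share was near the background. At an unadjusted p under 0.05, limma had 8 members higher and 1 lower. The share of all genes at that threshold is not given here, so this split is not read as a result about the list. For 12 members (30.8%) the ranges of KO and WT arrays were separate, against 25.5% of all genes. The median KO effect was 0.05 over the members and -0.01 over all genes. In RNA from sorted bulk cells, a change in the share of a cell type and a change in RNA per cell cannot be told apart.

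In GMP the changes were larger and ran both ways: Plekhm2, Vps39 and Vps18 were higher in KO cells, and Snx1, Rab27a, Kif5b and Ccz1 were lower. These 7 members made 17.9% of the list, beside 16.1% of all genes, and by direction 5.78% of all genes were higher and 10.3% lower. The split depended on the scaling: it was 3 higher and 4 lower as deposited, 6 higher and 1 lower after a second quantile normalisation, and 2 higher and 7 lower after centring each array on its median. Of all 19937 genes, 3212 were called in either direction as deposited, 2621 after that normalisation and 3694 after centring. KO and WT arrays did not overlap for 14 members (35.9%), against 29.6% of all genes. The median KO effect was -0.06 over the members and 0.01 over all genes, and the members' median turned to 0.02 without KO GMP replicate 1, to 0.07 after a second quantile normalisation and to 0.01 with array weights. Without KO GMP replicate 1 the counts were 3 higher and 5 lower, Mon1b being the added member, beside 3088 of all 19937 genes called. Leaving out that array moved the GMP difference by over 1.5 times for 17 of the 39 members and turned its sign for 6 others. None of the 7 called members was among these 23. Of the 39 members 25 had the same sign of KO effect in LSK and GMP (12 higher and 13 lower in both), which is 64.1%, beside 50.7% of all genes.

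Markers of some other cells moved with genotype. The mean of the 16 macrophage markers was 6.66 to 7.50 in KO LSK, against 5.82 to 6.04 in WT LSK, and 7.86 to 8.30 in KO GMP, against 6.21 to 6.38 in WT GMP. Of these 16, 5 were higher in KO LSK and 9 in KO GMP by limma, with 0 lower in both (0 in LSK and 1 in GMP at an unadjusted p under 0.05). Timd4 stayed at or below 5.77 as a group mean in all 4 groups. The group means of Spic also lay within that bound, but its arrays read 4.86, 6.23 and 6.17 in KO GMP, against 4.72, 4.96 and 4.41 in WT GMP. The mean of the 12 GMP markers was 8.97 to 9.39 in KO LSK and 7.81 to 8.57 in WT LSK, and it was 10.55 to 10.63 in KO GMP and 10.76 to 10.83 in WT GMP. The monocyte markers read 7.62 to 7.84 in KO LSK and 6.13 to 6.97 in WT LSK, the mast cell and basophil markers 7.86 to 8.84 in KO LSK and 6.36 to 7.02 in WT LSK, the megakaryocyte markers 6.53 to 6.86 in KO LSK and 7.22 to 7.82 in WT LSK, and the LSK and stem cell markers 8.77 to 9.02 in KO LSK and 9.19 to 9.28 in WT LSK. By limma 2 of 5 megakaryocyte markers and 2 of 10 LSK and stem cell markers were lower in KO LSK, with 0 higher. In GMP the mast cell and basophil markers read 8.92 to 10.32 in KO and 8.20 to 8.76 in WT, with 3 of 8 higher by limma and 0 lower. The monocyte markers read 8.77 to 9.10 in KO GMP and 8.90 to 8.98 in WT GMP, with 2 of 9 higher and 4 lower. The mature neutrophil markers varied within groups, at 7.58 to 9.45 in KO GMP and 7.74 to 9.67 in WT GMP, highest in replicate 1 of each. Of these 10, 1 was lower by limma in GMP and 0 were called in LSK. Erythroid markers read 7.06 to 7.35 in KO GMP and 7.61 to 7.83 in WT GMP, with 2 of 5 lower by limma and 0 higher. In LSK their arrays overlapped, with 1 higher. B cell markers read 5.55 to 5.74 in KO LSK and 5.79 to 6.23 in WT LSK, with 0 called. In GMP they read 5.59 to 5.67 in KO and 5.89 to 6.21 in WT, with 2 of 6 lower and 0 higher. Of these 6, 3 lay at or below 5.77 as group means in every group. The part of these shifts in the members' changes was not tested.

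**Figure D1:**
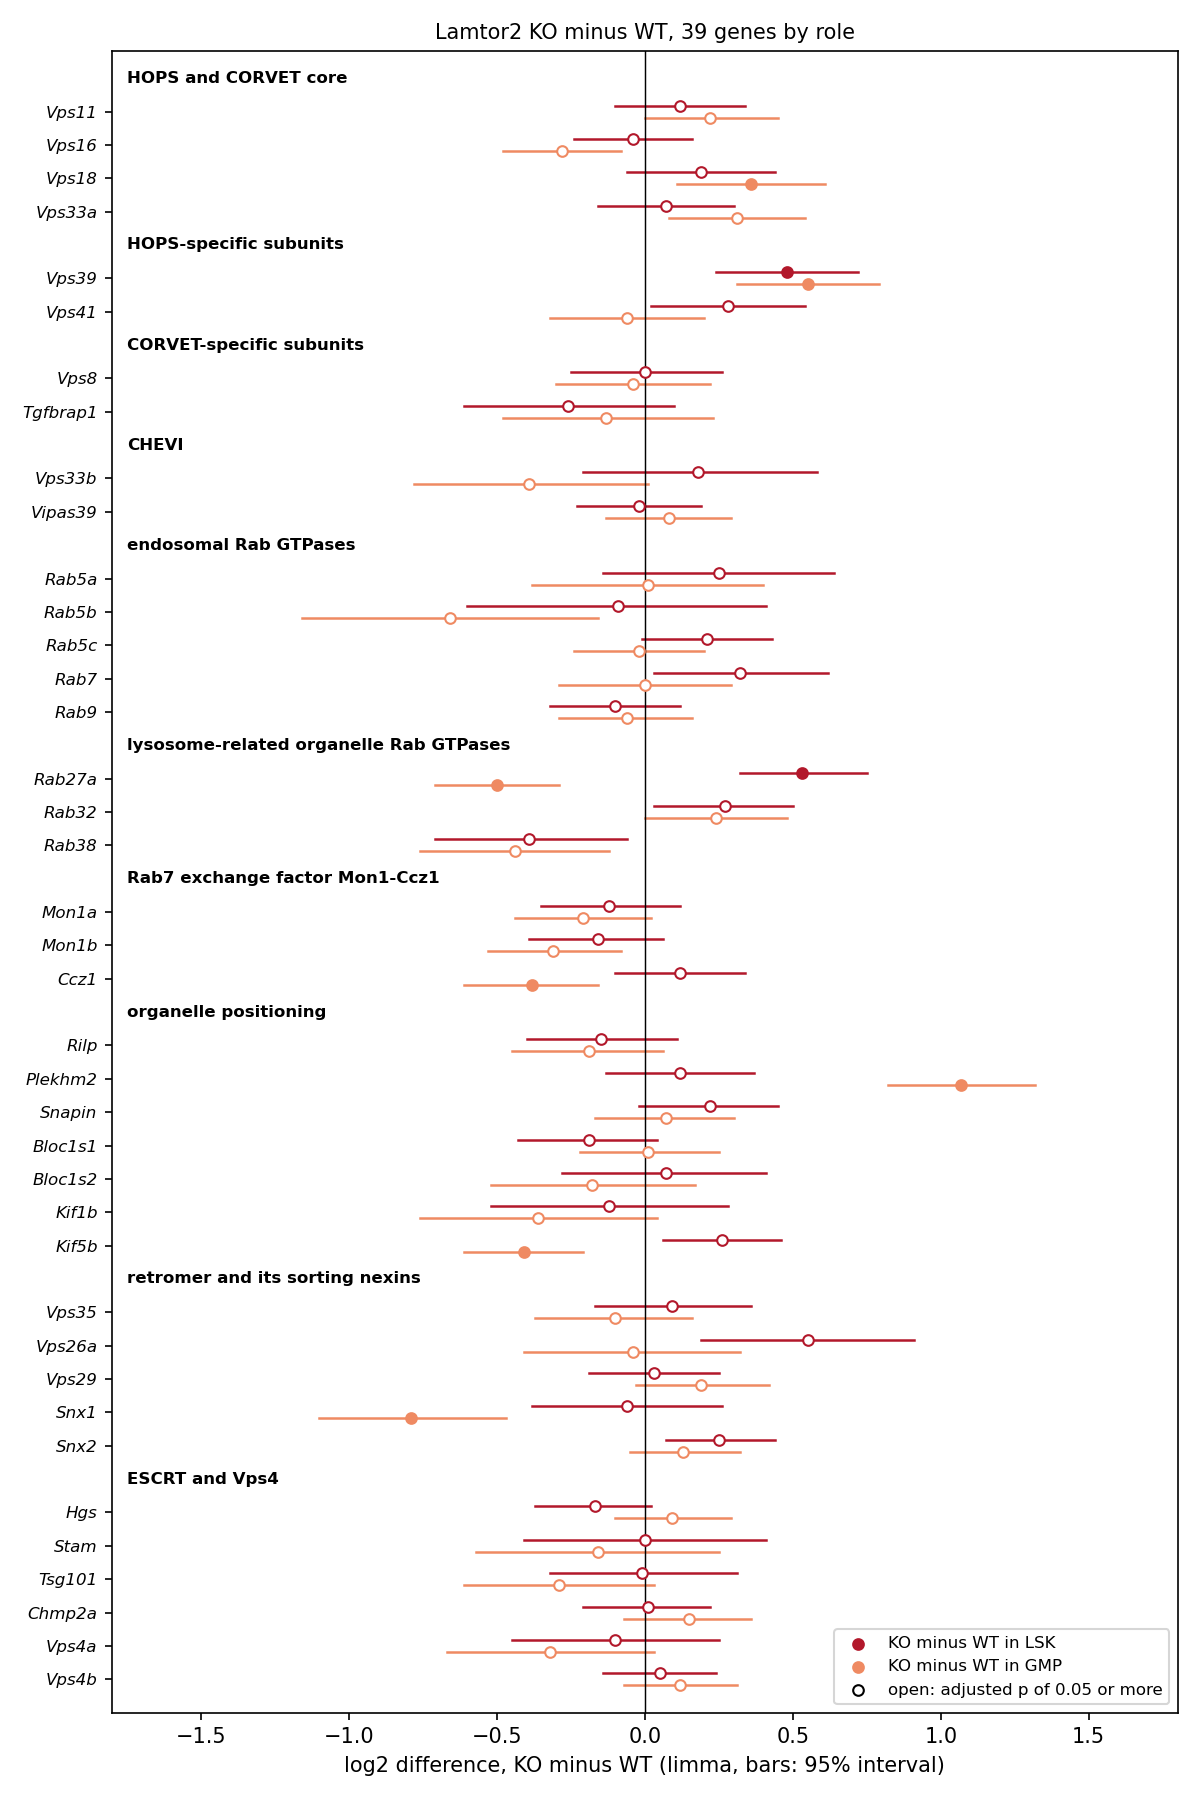
Difference in log2 signal, KO minus WT, for each of the 39 members, grouped by role, in LSK (dark red, upper point) and GMP (orange, lower point). Lines are 95% limma intervals and filled points passed an adjusted p of 0.05. Vps39 is filled to the right in both cell types, Rab27a is filled on opposite sides, and Plekhm2 at 1.07 in GMP lies farthest from 0. The signals behind the Rilp points lay within the bound of 5.77 as group means.

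Among the tethering complexes the clearest change was in Vps39, a subunit found in HOPS and not in CORVET, which links HOPS to Rab7. Vps39 read 9.43, 9.64 and 9.72 in KO LSK, against 9.0, 9.11 and 9.24 in WT LSK. In GMP it read 9.36, 9.54 and 9.32 in KO, against 8.73, 8.96 and 8.87 in WT. In both cell types every KO array lay above every WT array. Vps39 rose by 0.48 ± 0.11 (SE) in LSK (1.40-fold, limma adjusted p = 0.0245) and by 0.55 ± 0.11 in GMP (1.47-fold, limma adjusted p = 0.00416). The difference between the 2 effects was -0.07 (95% interval -0.41 to 0.27, limma adjusted p = 0.850). It was the 1 member called in the same direction in both cell types. The LSK call was lost without KO LSK replicate 2 or 3 or without WT LSK replicate 1 or 2 (effects of 0.42 to 0.48, limma adjusted p 0.0860 to 0.113). The GMP call held under all 20 alternatives run.

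Vps41, the other HOPS-specific subunit, which binds Rab7 effectors and Arl8 on lysosomes, read 8.69, 8.82 and 8.83 in KO LSK and 8.57, 8.47 and 8.46 in WT LSK. These groups did not overlap, yet the difference of 0.28 did not pass (limma adjusted p = 0.275), and in GMP the difference was -0.06.

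The 4 subunits shared by HOPS and CORVET are Vps11, Vps16, Vps18 and Vps33a, the last a Sec1/Munc18 protein that binds SNAREs. In LSK none passed, in limma or at an unadjusted p under 0.05, and their differences were -0.04 to 0.19. In GMP all 4 separated KO from WT arrays, as did 29.6% of all genes. Of the 4, 3 were higher in KO and 1 was called. Vps18 read 7.49, 7.85 and 7.65 in KO GMP, against 7.32, 7.24 and 7.34 in WT GMP. It rose by 0.36 ± 0.12 (SE, limma adjusted p = 0.0491), a call at the edge that was lost in 13 of 20 alternatives (effects of 0.27 to 0.45). Vps33a differed by 0.31 (limma adjusted p = 0.0708) and Vps11 by 0.22 (limma adjusted p = 0.177), both with KO above WT. Without KO GMP replicate 1 the Vps33a difference was 0.19 (limma adjusted p = 0.210). Vps16 differed the other way by -0.28 (limma adjusted p = 0.0598): it read 8.27, 8.51 and 8.33 in KO GMP and 8.61, 8.75 and 8.59 in WT GMP. Of the 6 HOPS subunits, Vps39 and Vps18 passed in GMP, both higher in KO.

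The CORVET-specific subunits Vps8 and Tgfbrap1, which link the complex to Rab5, did not pass in either cell type, and limma found neither at an unadjusted p under 0.05. Vps8 differed by 0.00 in LSK and -0.04 in GMP, and Tgfbrap1 by -0.26 and -0.13. Vps33b and Vipas39 form CHEVI, which serves the making of platelet alpha granules and collagen traffic. Vipas39 lay within 0.08 of WT in both cell types. Vps33b differed by 0.18 in LSK and by -0.39 in GMP (95% interval -0.78 to 0.01), where KO arrays read 7.92, 8.50 and 8.26 and WT arrays 8.27, 8.75 and 8.81, so that the groups overlapped. Without KO GMP replicate 1 the Vps33b difference in GMP was -0.23.

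The Rab GTPases on the list serve either endosomes or lysosome-related organelles. Of the 5 endosomal Rabs, Rab5a, Rab5b and Rab5c act on early endosomes, Rab7 on late endosomes and lysosomes, and Rab9 between late endosomes and the Golgi. None was called for KO against WT in either cell type. At an unadjusted p under 0.05, limma had Rab7 higher in LSK and Rab5b lower in GMP. Rab7 read 10.00, 10.48 and 10.36 in KO LSK and 9.76, 9.96 and 10.16 in WT LSK, with overlap between the groups, and differed by 0.32 (limma adjusted p = 0.255). In GMP the Rab7 interval ran from -0.29 to 0.29. Rab5c differed by 0.21 in LSK and -0.02 in GMP, and Rab9 by -0.10 and -0.06. Rab5a differed by 0.25 in LSK and 0.01 in GMP. Its GMP arrays read 7.71, 8.39 and 8.62 in KO and 8.26, 8.23 and 8.20 in WT, a wide spread in KO, and the difference was 0.27 without KO GMP replicate 1.

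Rab5b had 2 probe sets that did not give the same size of difference in GMP. The brighter one, used here, read 7.92, 8.66 and 8.46 in KO GMP and 9.02, 9.04 and 8.97 in WT GMP, a difference of -0.66 (limma adjusted p = 0.0724). The dimmer set gave -0.17 in the same comparison. Neither passed, and the direction was the same in both. Whether either set binds a near-identical copy of Rab5b is uncertain, and likewise for the probe sets of Tsg101 and Ap3s1.

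Of the 3 Rabs of lysosome-related organelles, Rab27a moved in opposite directions in the 2 cell types. Rab27a docks secretory granules at the plasma membrane and serves the release of neutrophil granules. It read 9.95, 10.22 and 10.15 in KO LSK, against 9.51, 9.57 and 9.63 in WT LSK. In GMP it read 10.15, 10.08 and 9.91 in KO, against 10.57, 10.56 and 10.51 in WT. KO arrays were all above WT in LSK and all below WT in GMP. The KO effect was 0.53 ± 0.10 (SE) in LSK (1.45-fold, limma adjusted p = 0.00682) and -0.50 ± 0.10 in GMP (0.708-fold, limma adjusted p = 0.00390). The effect in LSK minus the effect in GMP was 1.03 ± 0.14 (limma adjusted p = 0.00148), and it stayed past the threshold under all 19 alternatives run. The GMP call alone was lost after a second quantile normalisation (-0.32, limma adjusted p = 0.0662). Rab27a was also much lower in WT LSK than in WT GMP, by -0.97 ± 0.10 (limma adjusted p = 1.07e-05). Between the KO groups the difference was 0.06 (95% interval -0.15 to 0.27). The mean of the GMP markers, given above, lay on the same side as Rab27a in both cell types. Of these 12 markers 5 rose and 0 fell in LSK, while in GMP 3 fell and 1 rose, Fcgr2b (0.69, limma adjusted p = 0.00381), and 4 of 12 had a positive difference. Their part in the change of Rab27a was not tested.

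Rab32 and Rab38 are close relatives that deliver enzymes to melanosomes and platelet dense granules, and they lay on opposite sides of the LSK to GMP comparison. Rab38 read 10.45, 10.40 and 10.59 in KO LSK and 10.89, 10.88 and 10.82 in WT LSK. In GMP it read 8.86, 9.53 and 9.32 in KO and 9.46, 9.82 and 9.74 in WT. LSK arrays were far above GMP arrays in both genotypes. The LSK minus GMP difference was 1.24 ± 0.15 (SE) in KO (2.37-fold, limma adjusted p = 1.35e-04) and 1.19 ± 0.15 in WT (2.28-fold, limma adjusted p = 6.60e-05). The KO effect on Rab38 was -0.39 in LSK (limma adjusted p = 0.196) and -0.44 in GMP (limma adjusted p = 0.0624), neither of them called. The groups did not overlap in LSK and overlapped in GMP. Without KO GMP replicate 1 the LSK effect, still -0.39, was called (limma adjusted p = 0.0370), and the GMP effect was -0.25.

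Rab32 showed the reverse order of cell types. It read 9.33, 8.90 and 9.07 in KO LSK and 8.85, 8.80 and 8.85 in WT LSK. GMP arrays were higher, at 9.95, 10.10 and 10.16 in KO and 9.89, 9.84 and 9.75 in WT. KO arrays lay above WT arrays without overlap in both cell types. LSK minus GMP was -0.97 ± 0.11 (SE) in KO (0.510-fold, limma adjusted p = 8.61e-05) and -1.00 ± 0.11 in WT (0.501-fold, limma adjusted p = 2.32e-05). The KO effects on Rab32 were 0.27 in LSK (limma adjusted p = 0.242) and 0.24 in GMP (limma adjusted p = 0.171), not called in either. The cell type differences of Rab32 and Rab38 held under all 20 alternatives in both genotypes.

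**Figure D2:**
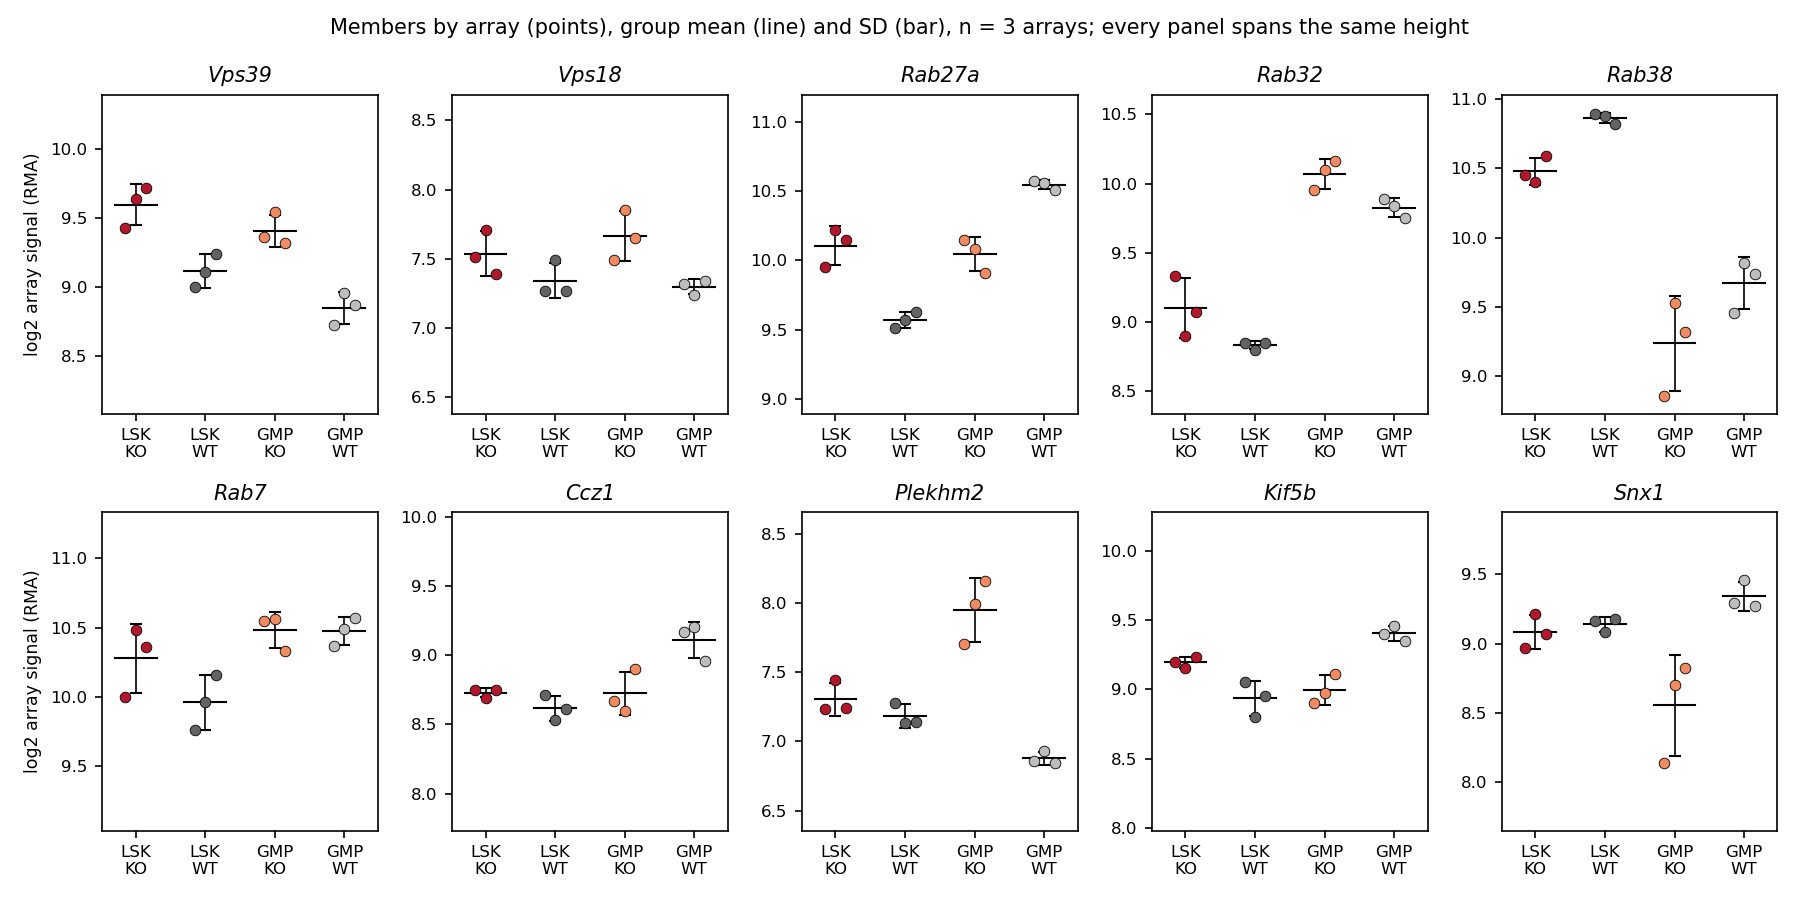
Log2 RMA signal of the 10 members described array by array, in KO LSK, WT LSK, KO GMP and WT GMP; points are arrays, lines group means and bars SD (n = 3 each). Rab27a in KO LSK (9.95 to 10.22) and KO GMP (9.91 to 10.15) lies between WT GMP (10.51 to 10.57) and WT LSK (9.51 to 9.63), and Plekhm2 is highest in KO GMP.

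Ccz1 and a Mon1 protein, Mon1a or Mon1b, form the exchange factor that loads Rab7 with GTP. Ccz1 read 8.67, 8.60 and 8.90 in KO GMP, against 9.17, 9.20 and 8.96 in WT GMP. The 3 KO arrays lay below the 3 WT arrays. Ccz1 fell by 0.38 on the log2 scale (SE 0.10, limma adjusted p = 0.0212), and 5 of 20 alternatives ended the call, among them a second quantile normalisation (-0.24, limma adjusted p = 0.127) and leaving out KO GMP replicate 2 (-0.32, limma adjusted p = 0.0621), WT GMP replicate 1 (-0.35, limma adjusted p = 0.0813) or WT GMP replicate 2 (-0.34, limma adjusted p = 0.0974). Mon1b, at 7.43, 7.23 and 7.10 in KO GMP and 7.43, 7.65 and 7.60 in WT GMP, differed by -0.31 (limma adjusted p = 0.0625), and by -0.39 without KO GMP replicate 1, when it passed (limma adjusted p = 0.0149). Mon1a differed by -0.21, so all 3 genes had lower means in KO GMP and 1 was called. In LSK their differences were -0.16 to 0.12, with 0 called by limma and 0 at an unadjusted p under 0.05. Ccz1 in LSK read 8.75, 8.69 and 8.75 in KO and 8.71, 8.53 and 8.61 in WT. The Ccz1 effect in LSK minus that in GMP was 0.50 (limma adjusted p = 0.0514), just outside the threshold.

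Among the genes that place lysosomes, Plekhm2 had the largest KO effect of the 39. Plekhm2, also called SKIP, couples Arl8 on lysosomes to kinesin-1 and so moves them outward. It read 7.70, 7.99 and 8.16 in KO GMP, against 6.86, 6.93 and 6.84 in WT GMP. In LSK it read 7.23, 7.44 and 7.24 in KO, against 7.28, 7.13 and 7.14 in WT. KO and WT arrays stood well apart in GMP and overlapped in LSK. Plekhm2 rose by 1.07 ± 0.12 (SE) in GMP (2.11-fold, limma adjusted p = 5.13e-05), while in LSK the difference was 0.12 (95% interval -0.13 to 0.37). The effect in LSK minus that in GMP was -0.96 ± 0.16 (limma adjusted p = 0.00483). The GMP call and the difference between cell types held under every alternative run, 20 and 19 of them.

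Kif5b, the heavy chain of kinesin-1 that Plekhm2 recruits, went the other way in GMP. It read 8.90, 8.97 and 9.11 in KO GMP, against 9.40, 9.46 and 9.35 in WT GMP. In LSK it read 9.20, 9.15 and 9.23 in KO, against 9.05, 8.80 and 8.95 in WT. KO arrays were below WT in GMP and above WT in LSK, with no overlap in either. Kif5b fell by 0.41 on the log2 scale in GMP (SE 0.09, limma adjusted p = 0.00936), and its difference of 0.26 in LSK was not called (limma adjusted p = 0.159). The effect in LSK minus that in GMP was 0.67 ± 0.13 (limma adjusted p = 0.00946) and held under all 19 alternatives. The GMP call was lost after a second quantile normalisation (-0.26, limma adjusted p = 0.0590).

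The other genes of this group were not called for KO against WT. Kif1b, a kinesin-3 motor that also serves lysosomes, was dim, and read 5.50, 6.45 and 6.25 in KO GMP and 6.33, 6.56 and 6.38 in WT GMP, a difference of -0.36 that was -0.07 without KO GMP replicate 1. Snapin, Bloc1s1 and Bloc1s2 are subunits shared by BLOC-1 and BORC, and Ragulator binds BORC. Snapin differed by 0.22 in LSK and 0.07 in GMP, Bloc1s1 by -0.19 and 0.01, and Bloc1s2 by 0.07 and -0.18, the GMP value of Bloc1s2 being -0.38 without KO GMP replicate 1 (limma adjusted p = 0.0629). Rilp, the Rab7 effector that recruits dynein, had group means of 5.51 in KO LSK, 5.66 in WT LSK, 5.52 in KO GMP and 5.71 in WT GMP, all within the bound of 5.77, so no fold is given.

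In retromer and its sorting nexins the 1 called change was a fall of Snx1 in GMP. Snx1 and Snx2 bend the membrane into the tubules that carry cargo away from the endosome, and Vps35, Vps26a and Vps29 form the core that binds cargo. Snx1 read 8.14, 8.70 and 8.82 in KO GMP, against 9.29, 9.46 and 9.27 in WT GMP. All 3 KO arrays were below all 3 WT arrays, with replicate 1 the lowest. In LSK the values were 8.97, 9.21 and 9.07 in KO and 9.16, 9.08 and 9.18 in WT, which overlapped. Snx1 fell by 0.79 on the log2 scale in GMP (SE 0.15, fold 0.580, limma adjusted p = 0.00283), and by 0.58 on that scale without KO GMP replicate 1 (limma adjusted p = 0.00177). In LSK the difference was -0.06 (95% interval -0.38 to 0.26). The effect in LSK minus that in GMP was 0.73 ± 0.21 (limma adjusted p = 0.0489), at the edge of the threshold, and 10 of 19 alternatives took it past 0.05, up to 0.131 without WT GMP replicate 2.

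Snx2, its close relative, did not follow Snx1. It read 10.02, 10.16 and 10.15 in KO GMP and 10.00, 10.01 and 9.91 in WT GMP, and 9.93, 9.99 and 9.98 in KO LSK and 9.82, 9.65 and 9.68 in WT LSK. KO arrays were above WT arrays in both cell types, with differences of 0.13 in GMP and 0.25 in LSK, neither called (limma adjusted p = 0.350 and 0.134). In the core, Vps26a read 8.84, 8.89 and 8.83 in KO LSK and 8.44, 8.12 and 8.37 in WT LSK. The groups did not overlap and the difference of 0.55 was the largest in LSK, but it was not called (95% interval 0.19 to 0.91, limma adjusted p = 0.0907). It passed without KO GMP replicate 1 (limma adjusted p = 0.00280), with array weights, or when the 2 LSK groups were fitted alone. Vps35 differed by 0.09 in LSK and -0.10 in GMP, and Vps29 by 0.03 and 0.19. Without KO GMP replicate 1 the GMP differences were 0.03 for Vps35 and 0.11 for Vps29.

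None of the ESCRT genes was called for KO against WT. Hgs and Stam form ESCRT-0, which gathers ubiquitinated cargo, Tsg101 belongs to ESCRT-I, Chmp2a to the ESCRT-III filament, and Vps4a and Vps4b are the ATPases that take the filament apart. For these 6, by the probe sets used, limma also had 0 at an unadjusted p under 0.05 in LSK and in GMP. Their differences ran from -0.17 to 0.05 in LSK and from -0.32 to 0.15 in GMP. The lowest in GMP were Vps4a, at 7.94, 8.64 and 8.69 in KO and 8.85, 8.81 and 8.58 in WT, and Tsg101, at 7.94, 8.59 and 8.42 in KO and 8.54, 8.73 and 8.56 in WT. In both genes replicate 1 was the lowest KO array, and without it the difference was -0.08 for Vps4a, against -0.32 with it, and -0.10 for Tsg101, against -0.29 with it.

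Whether a KO effect differed between LSK and GMP was tested as the LSK effect minus the GMP effect. It was called for 4 of the 39 members (10.3%), beside 7.98% of all genes: Rab27a, Kif5b and Snx1 were higher in this difference and Plekhm2 lower, against 5.34% of all genes higher and 2.64% lower. The median was 0.14 over the members and -0.03 over all genes. The members' median was 0.00 without KO GMP replicate 1, 0.01 after a second quantile normalisation and 0.07 with array weights. The members named above as called in 1 cell type alone but not in this test, Vps18 and Ccz1, are not shown to differ between the cell types.

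The members were also compared between LSK and GMP. In WT mice 1 member was higher in LSK and 7 lower, 20.5% of the list beside 19.6% of all genes, of which 10.3% were higher and 9.32% lower. LSK and GMP arrays did not overlap for 21 members (53.8%), against 40.6% of all genes. The median difference, LSK minus GMP, was -0.13 over the members and -0.03 over all genes. In KO mice 3 members were higher in LSK and 5 lower, again 20.5%, beside 15.8% of all genes (10.1% higher and 5.79% lower), and the groups did not overlap for 11 members (28.2%), against 31.5% of all genes. The medians were -0.01 and -0.05.

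Beside Rab38, Rab32 and Rab27a, the WT cell types differed in Kif5b, Ccz1, Rab7, Vps26a and Rab5c, all lower in LSK. WT LSK minus WT GMP was -0.47 for Kif5b (limma adjusted p = 0.00265) and -0.49 for Ccz1 (limma adjusted p = 0.00354), from the array values given above. Rab7 read 9.76, 9.96 and 10.16 in WT LSK and 10.37, 10.49 and 10.57 in WT GMP, a difference of -0.52 (limma adjusted p = 0.0151) with no overlap. That call was lost after a second quantile normalisation (-0.35, limma adjusted p = 0.122) and without WT GMP replicate 2 or 3 or WT LSK replicate 1 (limma adjusted p 0.0501 to 0.0769). Vps26a differed by -0.61 (limma adjusted p = 0.0189) and Rab5c by -0.33 (limma adjusted p = 0.0355). The Vps26a call was lost without WT LSK replicate 2 or WT GMP replicate 1 or 2 (limma adjusted p 0.0533 to 0.0900). The Rab5c call was lost in 7 of 20 alternatives, among them after a second quantile normalisation (-0.20) and without WT LSK replicate 1 or 3 or any 1 of the 3 WT GMP arrays.

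In KO mice none of these 5 was called between LSK and GMP, nor was Rab27a. The values, LSK minus GMP, were 0.20 for Kif5b, 0.01 for Ccz1, -0.20 for Rab7, -0.02 for Vps26a and -0.09 for Rab5c. The test of the change in this difference is the one above, which Kif5b and Rab27a passed and the others did not. Called in KO alone were Plekhm2 (-0.65 ± 0.12 SE, limma adjusted p = 0.00221), Snx1 (0.53), Tsg101 (0.53, limma adjusted p = 0.0272), Vps33a (-0.43, limma adjusted p = 0.0155), Vps29 (-0.40, limma adjusted p = 0.0180) and Rab9 (-0.33, limma adjusted p = 0.0453). Plekhm2 and Snx1 passed the test of the difference of effects. Tsg101, Vps33a, Vps29 and Rab9 did not (limma adjusted p = 0.478, 0.403, 0.579 and 0.922). They are therefore not shown to differ between the genotypes, and Rab9 was at -0.30 in WT. Of these 6 calls, the Plekhm2 call held under all 20 alternatives. The Snx1 call was at 0.33 without KO GMP replicate 1 (limma adjusted p = 0.0478) and was lost in 4 of 20, namely with array weights (0.36), in the fit of the 2 groups alone, and without KO LSK replicate 2 or 3 (limma adjusted p 0.0634 to 0.124). Tsg101 was lost in 5 of 20, among them without KO GMP replicate 1 (0.34, limma adjusted p = 0.0628) and without KO LSK replicate 1 or 3. Vps33a and Vps29 were each lost in 2 of 20, without KO LSK replicate 3 and in the fit of the 2 groups alone, and Rab9 was lost in 12 of 20, 9 of them on leaving out an array (each array but KO GMP replicate 1 and WT LSK replicates 1 and 2). The second Tsg101 probe set gave 0.36 and was not called.

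**Figure D3:**
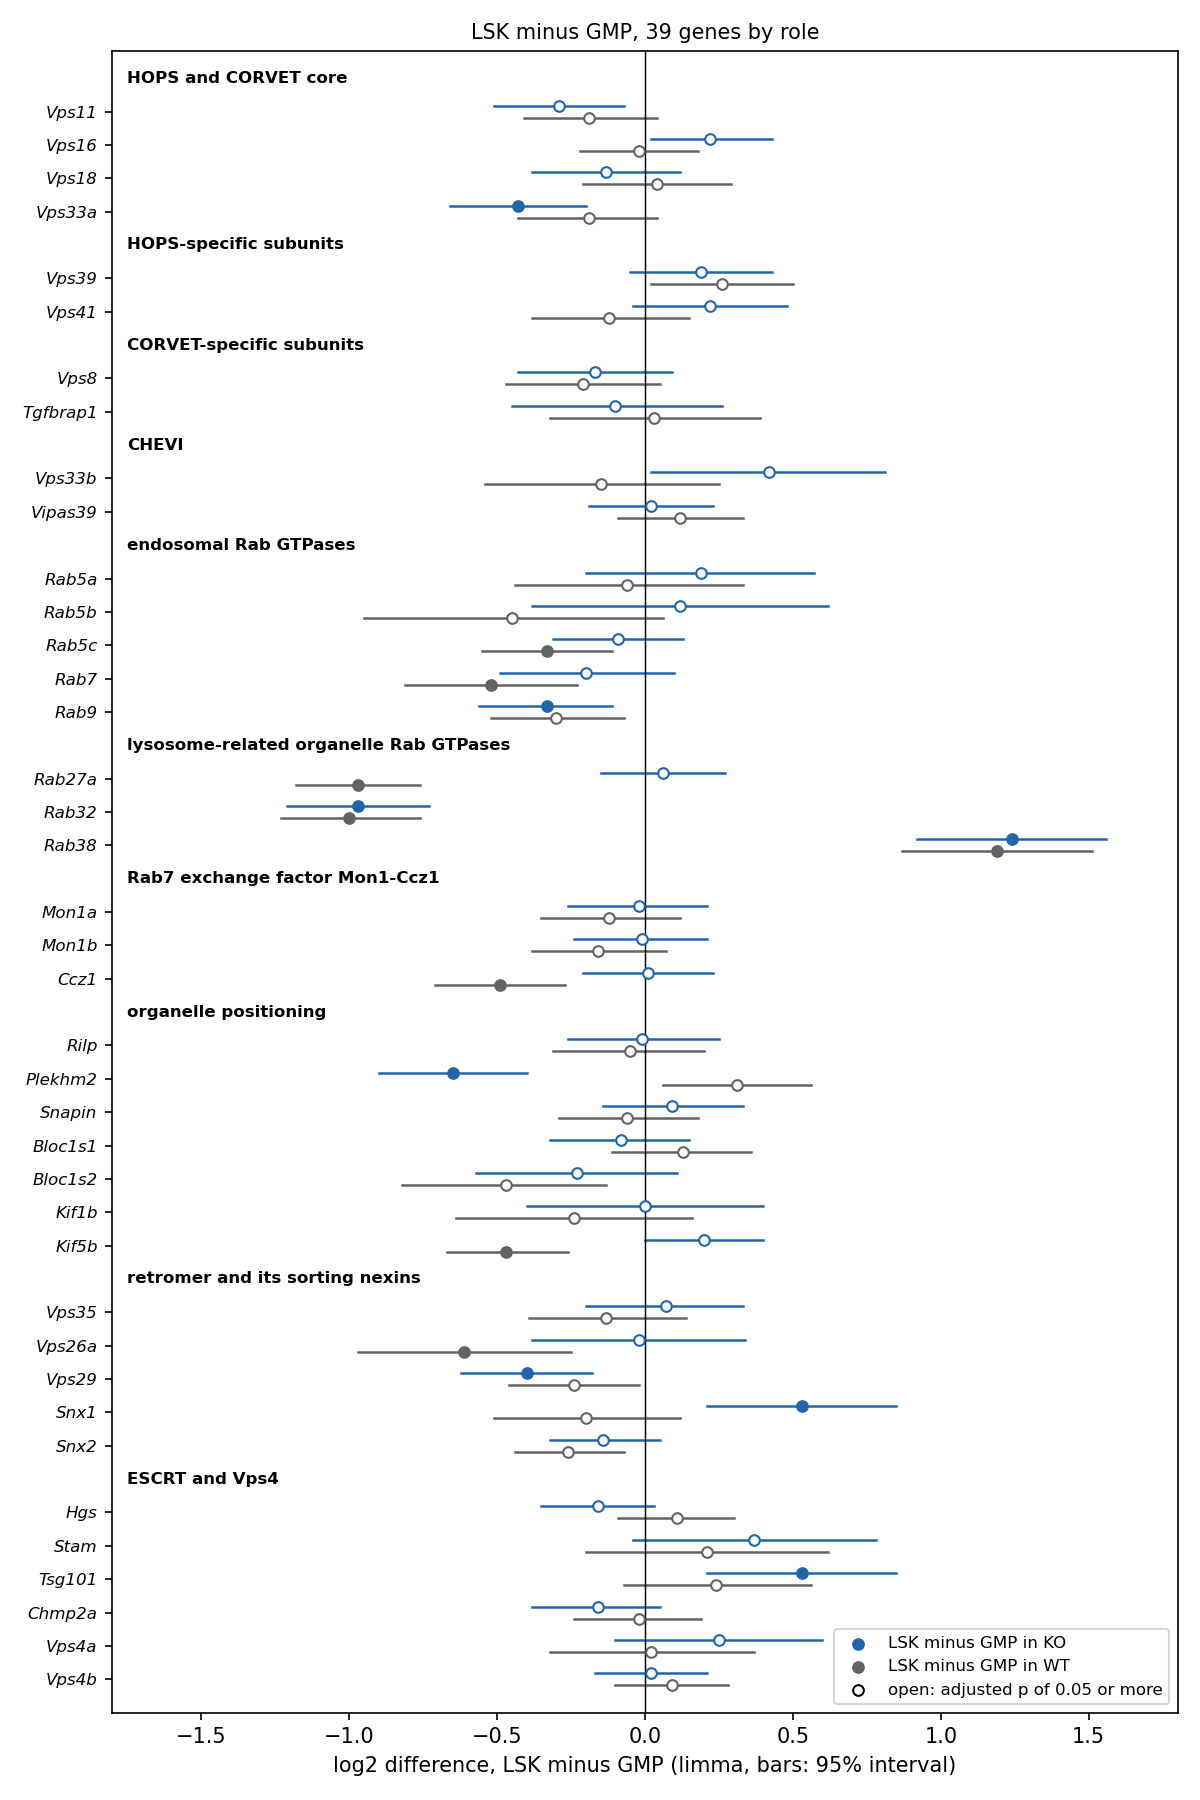
Difference in log2 signal, LSK minus GMP, for each of the 39 members by role, in KO mice (blue, upper point) and WT mice (grey, lower point). Lines are 95% limma intervals and filled points passed an adjusted p of 0.05. Rab38 and Rab32 lie far to either side of 0 in both genotypes, while Rab27a lies at -0.97 in WT and at 0.06 in KO.

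Other genes of the same pathways, 134 in 5 lists of which 128 were measured, were counted beside the members. In LSK 7 were higher in KO and 1 lower (6.25%, median 0.04), beside 4.44% of all genes. In GMP 13 were higher and 15 lower (21.9%, median 0.02), beside 16.1% of all genes, 5.78% higher and 10.3% lower. The same shares of all genes stand beside the counts of the single lists that follow. Rab7b, a Rab of late endosomes and the Golgi that is distinct from Rab7, rose in both cell types. It read 7.94, 8.96 and 8.99 in KO GMP, against 7.03, 7.05 and 6.87 in WT GMP, and rose by 1.65 ± 0.24 (SE, limma adjusted p = 5.16e-04). In LSK it read 6.11, 6.68 and 6.13 in KO, against 4.28, 4.43 and 4.70 in WT, which is under the bound, so the change there was at least 1.45-fold (limma adjusted p = 6.90e-04). Rilpl2, a relative of Rilp, rose by 1.10 in LSK (limma adjusted p = 0.0197) and by 1.19 in GMP (limma adjusted p = 0.00452).

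Among the other positioning genes, 2 of 28 rose in LSK and 4 rose and 3 fell in GMP. Ap3s1, a subunit of the adaptor AP-3 that sorts cargo to lysosome-related organelles, read 11.38, 11.00 and 11.03 in KO LSK, against 9.91, 9.33 and 9.35 in WT LSK. It rose by 1.61 ± 0.15 in LSK (SE, limma adjusted p = 5.11e-05), while in GMP all 6 arrays lay between 11.91 and 12.05. The LSK effect minus the GMP effect of Ap3s1 was 1.53 ± 0.21 (limma adjusted p = 0.00148), and its other 2 probe sets gave LSK effects of 1.84 and 1.33. Mcoln1, the calcium channel of the lysosome, rose by 0.98 in GMP (limma adjusted p = 9.65e-06), and Plekhm1, a Rab7 effector that binds HOPS and is related to Plekhm2, rose by 0.74 there (limma adjusted p = 4.01e-04). Both differed from LSK, with LSK minus GMP effects of -0.85 and -0.68 (limma adjusted p = 0.00216 and 0.0149).

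In the other ESCRT list 0 of 26 passed limma in LSK (1 higher and 1 lower at an unadjusted limma p under 0.05) and 2 rose and 2 fell in GMP, with Mvb12b at 0.60, Ptpn23 at 0.80 and Vps36 at -0.39. In the other retromer, sorting nexin and WASH list 1 of 24 rose in LSK, and 3 rose and 3 fell in GMP. Washc2, the WASH subunit that binds retromer, rose by 0.49 in LSK and by 0.39 in GMP, Snx8 rose by 0.75 in GMP, and Snx4 differed there by -0.62. Of the 18 SNARE genes, Nsf, the ATPase that recycles SNAREs, rose by 0.90 in LSK (limma adjusted p = 3.39e-04) and by 0.50 in GMP (limma adjusted p = 0.00611). Snap23 rose by 0.45 in LSK, Vamp4 rose by 0.48 in GMP, and Vamp7 was lower there at -0.51. Among 32 Rab regulators and phosphoinositide kinases, 2 rose and 1 fell in LSK and 2 rose and 5 fell in GMP. Rab29 was lower in both cell types, at -0.42 in LSK and -0.53 in GMP. Tbc1d15, which acts on Rab7, rose by 0.55 in LSK (limma adjusted p = 0.00169), and Chml, a Rab escort protein, was lower in GMP at -0.47 (limma adjusted p = 0.00687).

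**Figure D4:**
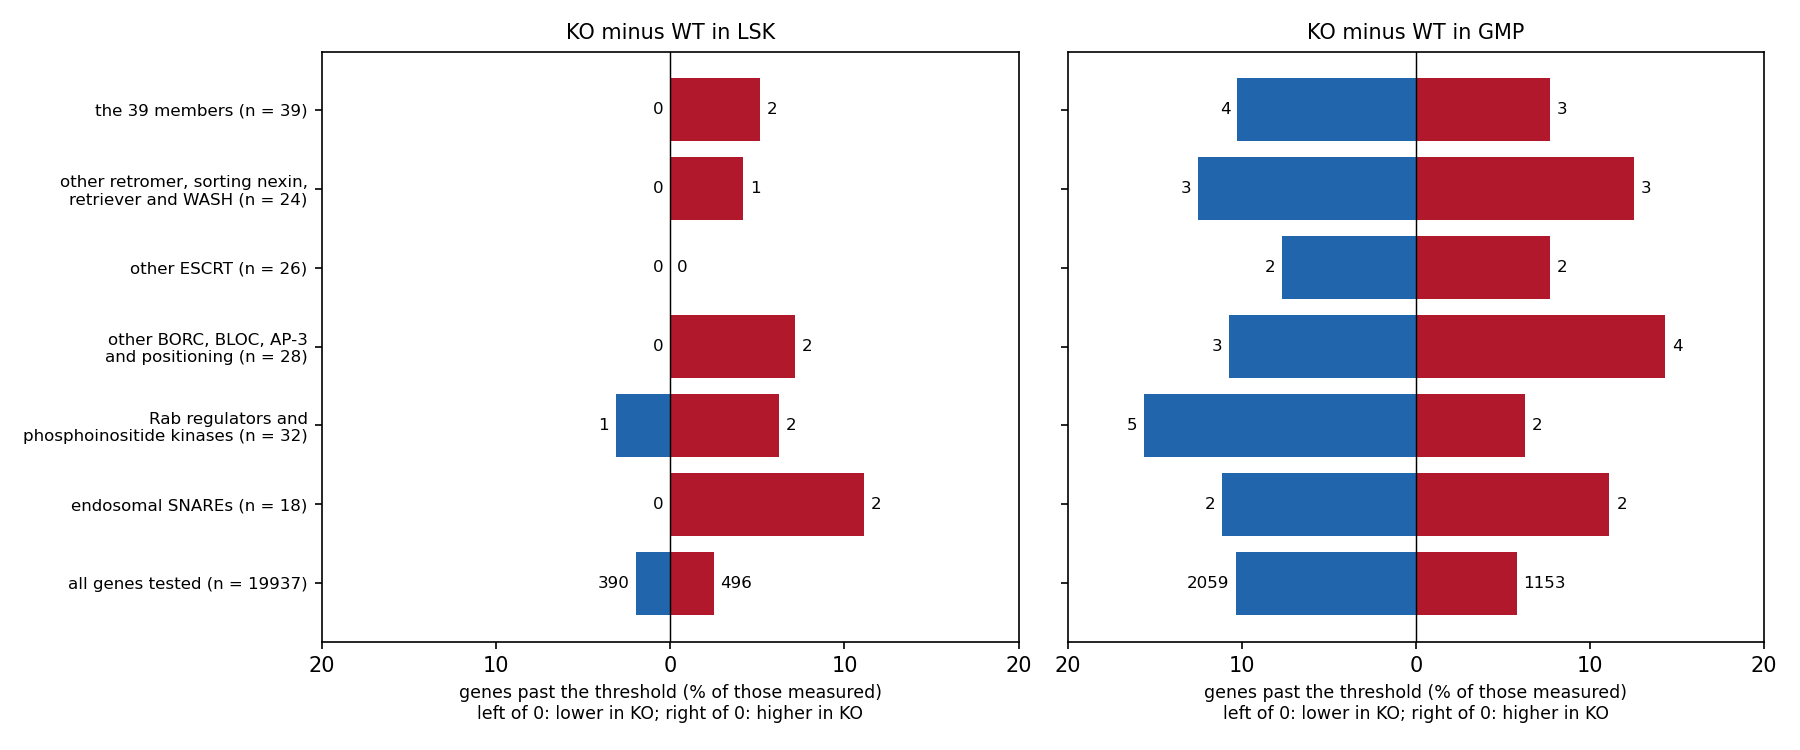
Share of each gene list past an adjusted p of 0.05 for KO minus WT, in LSK (left) and GMP (right), with genes lower in KO drawn left of 0 and genes higher in KO right of 0; the numbers are gene counts. The 39 members, at 2 higher and 0 lower in LSK and 3 higher and 4 lower in GMP, sit beside all genes at the bottom.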

How the data were processed

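RNA from sorted LSK and GMP cells of KO and WT mice was amplified, labelled with biotin and hybridised to 12 Affymetrix arrays, 3 per group. The authors deposited 1 table of log2 expression values for 34760 probe sets, made with RMA, per the submitters' processing notes; those notes and the other labels give no RMA version and no genome build. RMA corrects background, quantile-normalises arrays and summarises probe sets, so values are relative to the other arrays. Array medians were 5.96 to 6.18. The deposited table gives no detection calls. That its values are on a log2 scale was read from their range (highest 14.01 to 14.20).

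Probe sets were named from the platform annotation and updated through Entrez identifiers (21553 of 21640 sets with 1 symbol). The 1321 sets with several symbols and 11799 unlisted sets were left out. Where a gene had several sets, that of highest mean was used. Which member probe sets also bind near-identical copies was not examined. Groups were compared with limma 3.58.1 in R 4.3.3, with 1 mean per group (8 residual and 5.16 prior degrees of freedom) and Benjamini-Hochberg adjustment over 19937 genes. Replicates are separate mice, per the labels' protocols. Numbers were not used as pairs, because the labels do not say which LSK and GMP arrays share a mouse. Same-numbered LSK and GMP arrays of 1 genotype correlated at -0.179 to 0.177 in their deviations from group means, which cannot exclude shared mice. The test was tried on simulated data. The members and lists were chosen with earlier results of these data known. Every member is named; array values are given for members past the threshold in a KO comparison or the difference of KO effects, and for the 6 of smallest p between WT cell types, with other members added by choice. From each other pathway list up to 3 genes per comparison were named. By rule, promoters were for members called alike in both cell types, Vps39 alone, which had no promoter in the reference. Those printed were chosen after seeing the values. Alternatives were a second quantile normalisation, median centring, leaving out the dimmest 30% of genes, the mean of all probe sets, trend and robust moderation, array weights, fits of the compared groups alone, a replicate block and leaving out each array.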

Additional observations from a re-analysis of the deposited data

Results flagged for a closer look

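The KO effect differed between LSK and GMP, by limma's test of the difference itself, for 4 members. The LSK effect minus the GMP effect was 1.03 for Rab27a, -0.96 for Plekhm2, 0.67 for Kif5b and 0.73 for Snx1, with limma adjusted p of 0.00148, 0.00483, 0.00946 and 0.0489. Rab27a had effects of opposite sign, both called. Kif5b had effects of opposite sign, of which the GMP one was called. Plekhm2 and Snx1 were called in GMP and not in LSK. Groups of 3 arrays were too small for a test of single outlying arrays.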

How the results depend on the processing

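None of the 29 calls on single members changed direction under any alternative run. Among their 576 alternative values 503 stayed past the threshold and 73 did not, 53 of these on leaving out an array. Counts of members moved by over 1.5 times as follows. After a second quantile normalisation 6 members were higher and 1 lower for KO against WT in GMP, and 2 higher for WT LSK against WT GMP. With median centring 7 were lower in GMP and 11 lower for WT LSK against WT GMP. Array weights gave 3 higher and 11 lower in that WT comparison. Fits of only the groups compared gave 1 lower for KO against WT in LSK, 2 higher for WT LSK against WT GMP, and 1 higher and 2 lower for KO LSK against KO GMP. Calls over all 19937 genes also moved. For KO against WT in GMP the second quantile normalisation called 2621 and centring 3694, against 3212 in the main fit. For WT LSK against WT GMP they called 3811 and 4552, array weights 5684 and the fit of those groups alone 5400, against 3905. Fitted alone, KO LSK against KO GMP had 1327 genes called, against 3160, and KO against WT in LSK had 1390, against 886. The cause of these shifts was not tested.

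Leaving out each array in turn gave 1 to 3 members higher and 0 to 1 lower for KO against WT in LSK, 2 to 3 higher and 3 to 7 lower in GMP, and 2 to 4 higher and 1 lower for the difference of effects. It gave 1 to 2 higher and 4 to 10 lower for WT LSK against WT GMP, and 1 to 3 higher and 2 to 6 lower for KO LSK against KO GMP. Of all 19937 genes, the calls ran from 455 to 1672 for KO against WT in LSK and from 1853 to 3628 in GMP. They ran from 800 to 2006 for the difference of effects. Between LSK and GMP they ran from 2980 to 5100 in WT and from 1667 to 4044 in KO. The extremes of 7 lower in GMP came without KO GMP replicate 2, of 4 lower in WT without WT GMP replicate 2, and of 1 higher and 2 lower in KO without KO LSK replicate 3. Where a group was left with 2 arrays, its spread was pooled with the other groups.

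Same-numbered arrays of any 2 groups, KO and WT pairs included, correlated at -0.231 to 0.285 in their deviations from group means. With 3 arrays per group this cannot show whether arrays share a mouse. With the replicate number as a block, 5 members were lower in GMP (Rab38 added), against 4 without it, and no count moved by over 1.5 times. Of all genes, 3073 were called in GMP with the block, against 3212 without it. With the block the calls of Rab5c between WT cell types (limma adjusted p = 0.0571) and Rab9 between KO cell types (limma adjusted p = 0.0686) were lost, and the other 27 were not. Centring moved the median of all genes by at most 0.095 log2 units. With 3 arrays per group and no probe-level data used here, small differences could not be resolved: for KO against WT in GMP, 22 of 39 members had a 95% interval within 0.5 log2 units of 0.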
